A study of Mus musculus with 89 samples.

Results

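The resistin-like proteins, chitinases and arginase measured here were 8 genes of mouse lung, out of 22911 genes on the array. They were chosen by name, with earlier results of these data known: the resistin-like genes Retnla, Retnlb and Retnlg, the chitinase Chia1, the chitinase-like genes Chil1, Chil3 and Chil4, and the arginase Arg1. Setting their calls beside the share of all genes therefore describes them and is not a test. A gene entered through the array probes whose transcript accession carried its name, and each of the 8 had exactly 1 probe. The 89 samples of lung RNA fell into 26 groups. All mice were female BALB/c, 6 to 8 weeks old, and all, controls included, had been sensitized to ovalbumin (OVA) with alum. On 4 consecutive days they received PBS or OVA by oropharyngeal aspiration, alone in the control groups and otherwise with 1 of 4 copper oxide (CuO) nanomaterials at 2.5, 10 or 40 μg/mouse. Lungs were taken 24 h after the last aspiration. The materials were the core CuO, with no coating, and 3 surface-modified forms: CuO COOH (carboxylated), CuO NH3 (methylaminated) and CuO PEG (PEGylated). They were dosed by the mass of the whole material, so a coated material brought less copper at a given dose. PBS controls numbered 7 and OVA controls 8, PBS CuO NH3 and PBS CuO PEG at 10 μg/mouse had 4 samples each, and every other group had 3. Each sample was a pool of RNA from 2 mice, which lowers the visible spread between animals, and p-values measure the spread between such pools.

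These genes are classic readouts of type 2 immunity in the lung. Interleukin-4 and interleukin-13 act through the transcription factor STAT6 to switch on Arg1, Retnla and Chil3 in macrophages, a state often called alternative activation. Retnla (FIZZ1, RELMα) and Retnlb (RELMβ) encode small secreted proteins, the first made by macrophages and epithelium and the second chiefly by mucus-producing epithelium. Retnlg (RELMγ) is made in the bone marrow and by neutrophils. Chia1 encodes acidic mammalian chitinase, an enzyme that cuts chitin. Chil1 (BRP-39), Chil3 (Ym1) and Chil4 (Ym2) bind carbohydrate but have lost the enzyme activity. Arg1 turns arginine into ornithine and urea and so competes with nitric oxide synthase for arginine.

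The members lie in a few gene clusters. Retnlb, Retnla and Retnlg are direct neighbours on chromosome 16, in that order, between Trat1 and Dzip3. Chia1, Chil3 and Chil4 follow each other on chromosome 3 between Chil5 and Chil6. Chil1 lies apart from them on chromosome 1, between Chit1 and Mybph, and Arg1 on chromosome 10 between Med23 and Akap7. The RefSeq table (GRCm38.p6) held the sequence before the start site of 6 of the 8 members. It was searched on both strands for 3 motifs, TTCNNNNGAA (the STAT6 type) and TTCNNNGAA (the general STAT type), which read the same on both strands, and TTGCNNAA (C/EBP type). Of 32851 promoters of 300 bases, 6.95% held the first, 8.3% the second and 10.8% the third. The 250 bases before the start are printed 5′ to 3′ on the gene's strand for the 4 members with a match, since the neighbours within a cluster share sequence there. Capitals mark the motif matches.
Retnla, chr16:48842359-48842608, + strand: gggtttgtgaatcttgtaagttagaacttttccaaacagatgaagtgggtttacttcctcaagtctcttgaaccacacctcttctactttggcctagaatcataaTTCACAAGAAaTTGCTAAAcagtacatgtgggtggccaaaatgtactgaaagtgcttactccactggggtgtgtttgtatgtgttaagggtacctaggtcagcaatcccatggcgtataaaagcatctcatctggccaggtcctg
Retnlg, chr16:48872358-48872607, + strand: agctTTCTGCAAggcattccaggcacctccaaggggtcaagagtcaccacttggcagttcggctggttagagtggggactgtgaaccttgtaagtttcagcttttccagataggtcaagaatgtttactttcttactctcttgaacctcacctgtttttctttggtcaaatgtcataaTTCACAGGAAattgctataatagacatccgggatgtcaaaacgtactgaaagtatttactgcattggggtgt
Chil3, chr3:106167565-106167814, - strand: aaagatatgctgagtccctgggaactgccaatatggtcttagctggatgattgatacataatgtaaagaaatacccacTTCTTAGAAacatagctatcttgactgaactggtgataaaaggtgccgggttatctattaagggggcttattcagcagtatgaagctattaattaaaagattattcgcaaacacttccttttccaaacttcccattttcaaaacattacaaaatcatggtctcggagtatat
Chil4, chr3:106219480-106219729, - strand: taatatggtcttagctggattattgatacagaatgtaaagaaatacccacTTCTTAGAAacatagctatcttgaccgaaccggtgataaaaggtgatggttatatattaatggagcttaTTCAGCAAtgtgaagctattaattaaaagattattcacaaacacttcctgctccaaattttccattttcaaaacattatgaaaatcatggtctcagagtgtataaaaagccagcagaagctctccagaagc

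Retnla held a STAT6-type match, TTCACAAGAA, from position -145, counted with -1 as the last base before the start, and a C/EBP-type match 1 base after it from -134. Retnlg held TTCACAGGAA from -72 and a C/EBP-type match on the other strand from -246. Chil3 and Chil4 held the same STAT-type match, TTCTTAGAA, from -172 and -200, and Chil4 also a C/EBP-type match on the other strand from -131. The stretch around that STAT-type match was the same in both, with a longest shared run of 44 bases. Over the best ungapped alignment, 67.6% of 222 positions of the Chil3 and Chil4 windows and 61% of 177 positions of the Retnla and Retnlg windows were identical. The other 13 pairs of windows were 33.1% to 37.6% identical. Chia1 and Chil1 had no match to these letters, which says only that the letters are not in this window. Chil3 and Chil4 transcripts are themselves nearly identical, so their probes may each have read both, and this was not tested.

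**Figure D1:**
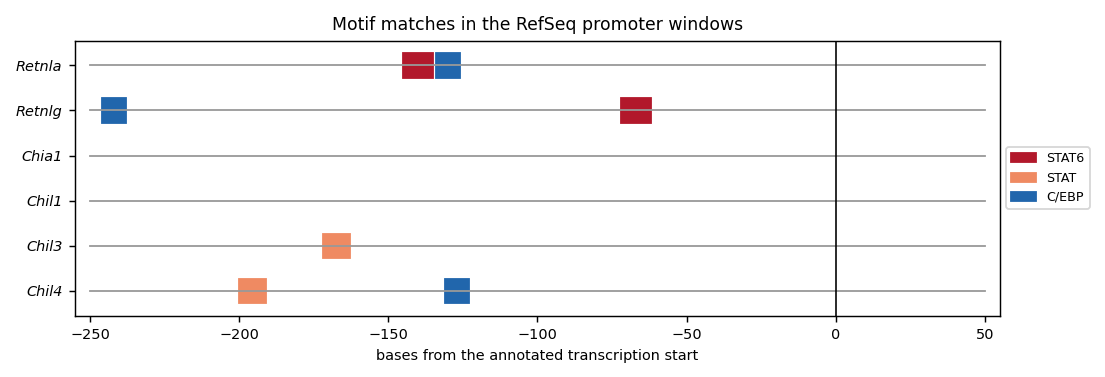
Positions of the motif matches before the start site of the 6 members with a promoter sequence, with distance from the start site in bases on the x axis. Retnla and Retnlg carry STAT6-type and C/EBP-type matches, Chil3 a STAT-type match, Chil4 a STAT-type and a C/EBP-type match, and Chia1 and Chil1 none.

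Each array carried 1 sample in Cy3 and mostly another in Cy5, over 46 arrays on 6 slides. CuO and CuO COOH were hybridised on the first 3 slides, with 3 PBS and 4 OVA controls, and CuO NH3 and CuO PEG on the other 3 slides, with 4 of each. Levels below are quantile-normalised log2 intensities with the effects of dye, slide and position on the slide removed. Fold changes came from limma with the dye and the array as terms, so a fold change need not equal the difference between the levels shown. A gene was called changed at an adjusted p under 0.05 (Benjamini-Hochberg over all genes) with a log2 fold change beyond 0.58, that is 1.5-fold. Shares of all genes called belong to the main fit of each comparison. Where a comparison was refitted with other terms, that share was not counted. The lung marker genes Sftpc, of alveolar type 2 cells, and Scgb1a1, of club cells, read 16.87 to 18.04 and 16.22 to 17.90 in all samples. Retnlb was well above background in 78 of 89 samples (5 of the 7 PBS controls), Chil4 in 86 and Arg1 in 87, and the other 5 members in 89. In the 3 samples of PBS CuO PEG at 2.5 μg/mouse Retnlb was not well above background, so the measure there is only a bound, and with CuO PEG at 10 μg/mouse 1 of 4 was.

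In mice challenged with OVA alone, 7 of the 8 members were called higher than in mice challenged with PBS alone, against 5.22% of all 22889 genes tested, either direction. Chil4 ranged from 6.43 to 7.13 (median 6.91) in PBS controls and from 11.51 to 12.87 (median 12.1) in OVA controls. It was 21.1-fold higher (log2 fold change 4.40 ± 0.33 SE, adjusted p = 3.42e-09). Arg1 ranged from 6.46 to 7.68 (median 6.69) in PBS controls and from 10.93 to 13.19 (median 12.01) in OVA controls. Its increase was 19.1-fold (4.26 ± 0.38, adjusted p = 3.03e-08). For Retnla the PBS controls lay between 12.78 and 14.05 (median 13.12) and the OVA controls between 16.33 and 18.10 (median 16.96). The increase was 18.9-fold (4.24 ± 0.37, adjusted p = 2.7e-08). Chil3 lay between 12.53 and 13.80 (median 13.42) in PBS controls and between 15.87 and 17.71 (median 17.06) in OVA controls. It rose 15.4-fold (3.94 ± 0.41, adjusted p = 3.22e-07). For all 8 members, every OVA control sample lay above every PBS control sample, Chil1 included. The share of all genes that separate in this way was not counted. By limma, 5349 of the 22889 genes had an unadjusted p under 0.05 in this comparison.

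The other members moved less. Retnlb read 5.61 to 6.58 (median 6.08) in PBS controls and 8.34 to 9.70 (median 9.09) in OVA controls, a 6.41-fold increase (2.68 ± 0.30, adjusted p = 1.28e-06). Chia1 read 11.44 to 12.24 in PBS controls and 13.23 to 14.55 in OVA controls, 3.80-fold higher (1.93 ± 0.25, adjusted p = 1.01e-05). Retnlg was 2.05-fold higher (1.04 ± 0.28, adjusted p = 0.016), with PBS controls at 10.42 to 11.34 and OVA controls at 11.90 to 12.68. That call was lost without PBS control replicate 2 or OVA control replicate 3, which shared an array (0.43, adjusted p = 0.619). Chil1 had a log2 fold change of 0.66 ± 0.26 (adjusted p = 0.105) and was not called, although its 7 PBS controls (14.31 to 14.83) and 8 OVA controls (15.04 to 15.34) did not overlap. With dye, slide and position as terms it was called. A fit on all samples of slides 4 to 6, with 8 controls among them, called Arg1, Retnla, Chil3 and Chil4. Retnlb (2.39, adjusted p = 0.0769), Chia1 (0.99, adjusted p = 0.27) and Retnlg (0.80, adjusted p = 0.477) were not called there. In the like fit on slides 1 to 3, with 7 controls, all but Retnlg (1.16, adjusted p = 0.0546) and Chil1 (0.62, adjusted p = 0.333) were called.

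**Figure D2:**
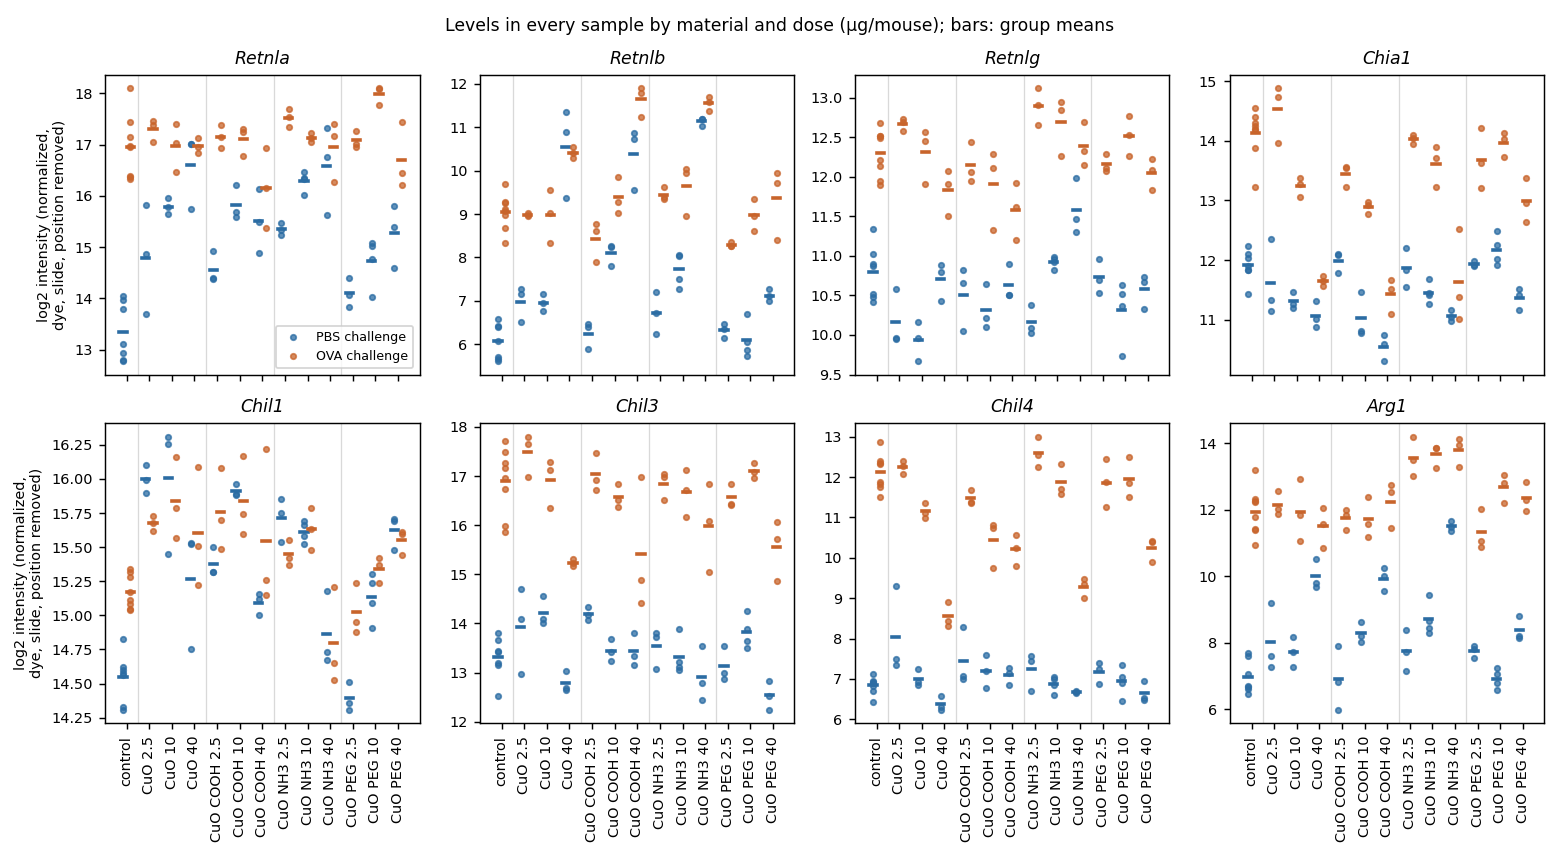
Levels (log2, dye, slide and position removed) of the 8 members in each sample, by material and dose on the x axis, with PBS-challenged and OVA-challenged mice in separate colours. Points are samples and bars are group means. Chil3 and Chil4 of all 13 OVA groups have means above those of all 13 PBS groups, while Retnlb of PBS-challenged mice climbs to the OVA range at 40 μg/mouse of all materials but CuO PEG.

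Other genes of the interleukin-4 and interleukin-13 pathway rose with the challenge as well. Of 29 such genes measured, 15 were called higher and none lower, with a median log2 fold change of 0.60 against -0.02 over all genes. This list, like the others below, was chosen with earlier results of these data known. The eosinophil chemokine Ccl24 was higher by 4.25 on the log2 scale, Ch25h, which makes an oxysterol, by 3.13, and Pdcd1lg2, the checkpoint ligand PD-L2, by 2.54. Of 18 genes of arginine use, 5 were called higher and none lower, led by Gatm, of creatine synthesis, at 2.36, the arginine transporter Slc7a2 at 1.17 and the proline synthesis enzyme Aldh18a1 at 1.06. Of 9 relatives and binding partners of the members, among them Retn and Chit1, none was called. Markers of other cells moved with the challenge. Of 8 goblet cell markers 7 were called higher, led by Clca1 at 6.87, of 9 monocyte and interstitial macrophage markers 7, and of 4 eosinophil markers Prg2 at 1.34 and Epx at 0.74. The mean level of the goblet list was 7.29 to 8.12 in PBS controls and 10.9 to 11.7 in OVA controls. Their part in the members' rise was not tested. In bulk lung RNA, a change in how many cells of a type are present and a change in RNA per cell cannot be told apart.

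In PBS-challenged mice, which received no allergen in the airways, Retnla was called higher with all 4 materials. Retnlb, Arg1 and Chil1 were called higher with CuO, CuO COOH and CuO NH3, and the other members had at most 1 call. Over 12 comparisons with the 7 PBS controls, which all 12 share, there were 24 calls in 96 values, 23 higher and 1 lower. Only 1 was at the lowest dose, 10 were at the middle dose and 13 at the highest. CuO had 8 of them, CuO COOH and CuO NH3 had 7 each, and CuO PEG had 2. The share of all genes called at 2.5, 10 and 40 μg/mouse was 0.909%, 3.54% and 14.0% for CuO, 0.345%, 3.61% and 10.3% for CuO COOH, 0.935%, 3.37% and 13.2% for CuO NH3, and 0%, 0.428% and 2.18% for CuO PEG.

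Retnlb gave the largest fold changes of the 8 members at the highest dose of the 3 materials other than CuO PEG. PBS controls lay at 5.61 to 6.58. At 40 μg/mouse the 3 samples read 9.38, 11.36 and 10.88 with CuO, 10.74, 9.55 and 10.87 with CuO COOH, and 11.19, 11.19 and 11.03 with CuO NH3. All 9 samples lay above every PBS control and above the median OVA control (9.09). Retnlb was 44.8-fold higher with CuO (5.49 ± 0.51, adjusted p = 1.29e-07), 39.5-fold with CuO COOH (5.30 ± 0.49, adjusted p = 1.47e-07) and 26.8-fold with CuO NH3 (4.74 ± 0.36, adjusted p = 1.43e-09). These log2 fold changes were 4.47, 4.32 and 5.07 with dye, slide and position as terms. Since 2 of the 7 PBS controls were not well above background, the baseline of these fold changes lies partly at background. With CuO PEG at that dose the samples read 7.10, 6.99 and 7.26, all above the controls, and the change was not called with the array as a term, while it was with dye, slide and position (1.05, adjusted p = 0.0389). At 10 μg/mouse Retnlb was called with CuO COOH (2.99 ± 0.54; samples at 8.26, 8.24 and 7.81), CuO (2.23 ± 0.53; 6.75, 6.94 and 7.15) and CuO NH3 (1.46 ± 0.36; 7.28, 8.04, 8.06 and 7.50). These calls at 10 μg/mouse were less firm. The CuO COOH call was lost without its replicate 3 (adjusted p = 0.158), the CuO call without PBS control replicate 3 (0.128) and with dye, slide and position as terms (0.88, adjusted p = 0.118), and the CuO NH3 call without its replicate 4 or PBS control replicate 2 (adjusted p = 0.05 to 0.2), with the controls of the same slides alone (adjusted p = 0.212) and with loess (adjusted p = 0.0632).

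Arg1 rose at the highest dose of the same 3 materials. PBS controls read 6.46 to 7.68. The samples at 40 μg/mouse read 9.69, 10.51 and 9.79 with CuO, 10.25, 9.54 and 10.00 with CuO COOH, and 11.65, 11.37 and 11.47 with CuO NH3. Every one of these 9 samples lay above every PBS control, and the CuO NH3 samples fell within the range of the OVA controls. Arg1 was 19.0-fold higher with CuO (4.25 ± 0.63, adjusted p = 3.96e-05), 18.1-fold with CuO COOH (4.18 ± 0.61, adjusted p = 4.44e-05) and 24.0-fold with CuO NH3 (4.58 ± 0.44, adjusted p = 5.07e-08). The log2 fold changes with dye, slide and position as terms were 3.03 (CuO), 2.96 (CuO COOH) and 4.53 (CuO NH3), all called, so the fold changes with CuO and CuO COOH depend on these terms. With CuO PEG the samples read 8.21, 8.16 and 8.79, also above all controls, without a call with the array as a term and with one with dye, slide and position (1.42, adjusted p = 0.0286). At 10 μg/mouse Arg1 was called only with CuO COOH (3.04 ± 0.67, adjusted p = 0.0105; 8.64, 8.02 and 8.20), and that call was lost without its replicate 3 (1.53, adjusted p = 0.41) and with dye, slide and position as terms (1.32, adjusted p = 0.0833). Arg2, the mitochondrial arginase, was called higher at 40 μg/mouse with all 4 materials, by 2.34 on the log2 scale with CuO, 1.90 with CuO COOH, 1.60 with CuO NH3 and 1.40 with CuO PEG. Of the 18 genes of arginine use, 5 were called higher and 1 lower with CuO at that dose, 6 and 1 with CuO COOH, 6 and 2 with CuO NH3, and 2 and 0 with CuO PEG. The spermidine synthase gene Srm was higher by 1.44 with CuO and with CuO NH3 by 1.21.

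Retnla was called with all 4 materials. It read 12.78 to 14.05 in PBS controls and 16.02, 16.35, 16.47 and 16.33 with CuO NH3 at 10 μg/mouse, 10.7-fold higher (3.42 ± 0.44, adjusted p = 2.42e-05). At 40 μg/mouse it was 10.3-fold higher with CuO (3.36 ± 0.62, adjusted p = 0.000433; 17.01, 15.75 and 17.02) and 9.35-fold with CuO NH3 (3.22 ± 0.44, adjusted p = 5.92e-06; 16.76, 15.63 and 17.33). These 3 calls held whichever sample was left out, and all 10 samples lay above all PBS controls. The 2 CuO PEG calls of the whole set were Retnla, at 10 μg/mouse (1.58 ± 0.31, adjusted p = 0.00973; 15.09, 15.02, 14.76 and 14.03) and at 40 μg/mouse (2.14 ± 0.51, adjusted p = 0.0223; 14.59, 15.81 and 15.40). The first was lost without CuO PEG replicate 2 or 3 or PBS control replicate 6 or 7 (adjusted p = 0.103 to 0.176) and with replicate number as a block (0.70, adjusted p = 0.16), and the second without any of its own 3 samples or PBS control replicate 2 (0.0538 to 0.169) and with the controls of the same slides alone (2.16, adjusted p = 0.212). Retnla was also called with CuO at 10 μg/mouse (2.29 ± 0.64, adjusted p = 0.0464) and CuO COOH at 40 μg/mouse (1.82 ± 0.60, adjusted p = 0.0466). The former was lost without CuO replicate 2 or 3 or PBS control replicate 2, 3 or 7 (0.0537 to 0.405), and the latter without any of its own 3 samples or PBS control replicate 1, 2, 5 or 7 (0.0505 to 0.297). Both were also lost with the controls of the same slides alone (2.29, adjusted p = 0.0826, and 1.86, adjusted p = 0.0615). The fold change of Retnla was positive in all 12 comparisons, from 1.00 to 3.42.

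Chil1 was called from the lowest dose of CuO. PBS controls lay at 14.31 to 14.83, and the samples with CuO at 2.5 μg/mouse read 15.90, 16.10 and 15.99. That was 3.80-fold higher (1.93 ± 0.38, adjusted p = 0.0106), and the call held whichever sample was left out but not with the controls of the same slides alone (1.96, adjusted p = 0.0818). Log2 fold changes were 2.196 with CuO and 2.31 with CuO COOH at 10 μg/mouse and 1.37 and 1.38 at 40 μg/mouse, all called, and 1.05 with CuO NH3 at 10 μg/mouse. Those with CuO and CuO COOH, with dye, slide and position as terms, were 1.46 and 1.36 at 10 μg/mouse and 0.72 and 0.55 at 40 μg/mouse. The difference between doses was not tested. Each of these 5 calls was lost without single samples. The CuO call at 10 μg/mouse was lost without its replicate 2 (1.66, adjusted p = 0.144), and that at 40 μg/mouse without its replicate 2 or PBS control replicate 2 or 3 (adjusted p = 0.0536 to 0.113) and with the controls of the same slides alone (adjusted p = 0.117). The CuO COOH call at 10 μg/mouse was lost without its replicate 1 or 3 or PBS control replicate 1 (0.0712 to 0.151), and that at 40 μg/mouse without any of its own samples or PBS control replicate 1 (0.0551 to 0.319), with the controls of the same slides alone (adjusted p = 0.0937), with replicate number as a block (0.50, adjusted p = 0.0557) and, by size, with dye, slide and position as terms (0.55, adjusted p = 0.0389). The CuO NH3 call was lost without its replicate 1 or 4 or PBS control replicate 2, 3, 4, 6 or 7 (0.0601 to 0.502).

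Chil3, Chil4 and Retnlg, which had risen with OVA, were called in 0 of 12 comparisons each by limma, with an unadjusted p under 0.05 in 2, 1 and 4, and with dye, slide and position as terms they were called in 0, 1 and 2. Their log2 fold changes ran from -0.96 to 2.11 for Chil3, from -0.97 to 1.095 for Chil4 and from -1.14 to 0.53 for Retnlg. Chia1 was called once, lower with CuO NH3 at 40 μg/mouse (-0.91 ± 0.30, adjusted p = 0.0277; 10.98, 11.05 and 11.16 against 11.44 to 12.24), and not without CuO NH3 replicate 1 or 3 or PBS control replicate 5 (adjusted p = 0.0739 to 0.436). For Chia1 all samples with CuO and CuO COOH at that dose lay below all PBS controls too, uncalled with the array as a term and called with dye, slide and position (-0.84, adjusted p = 0.0106, and -1.36, adjusted p = 9.87e-05). No member was called at 2.5 μg/mouse with CuO COOH, CuO NH3 or CuO PEG, where 5, 3 and 1 had an unadjusted p under 0.05 and limma with dye, slide and position as terms called 0, 2 and 0. Of 22889 genes, 1519, 2725 and 1004 had an unadjusted p under 0.05 in these comparisons.

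Markers of other cells moved in the same groups. The neutrophil list at the highest dose had 8 of 9 genes called higher and 1 lower with CuO, 3 and 0 with CuO COOH, 6 and 1 with CuO NH3, and 2 and 0 with CuO PEG, led with CuO by Il1r2 at 3.54 and Mmp8 at 3.44. The mean of that list was 9.71 to 10.0 in PBS controls and 10.8 to 11.3 with CuO, 10.5 to 10.7 with CuO COOH, 11.03 to 11.41 with CuO NH3 and 10.3 to 10.5 with CuO PEG. Of 8 alveolar macrophage markers 6, 3, 5 and 2 were called lower in the same order and none higher, with Fabp1 at -4.88 and Abcg1 at -1.69 with CuO. Of 9 monocyte and interstitial macrophage markers 6, 6, 7 and 3 were called higher. The goblet list, which had risen with the OVA challenge, had 1, 0, 1 and 0 of 8 genes called higher and none lower, the single gene in both cases being Agr2. Its mean was 7.29 to 8.12 in PBS controls, 7.97 to 8.62 with CuO and 8.23 to 8.30 with CuO COOH. At 2.5 μg/mouse it was 8.53 to 10.48 with CuO and 9.05 to 9.95 with CuO COOH. At 10 μg/mouse it was 8.16 to 9.06 and 8.80 to 9.63. With CuO NH3 and CuO PEG it did not lie wholly above the controls at any dose. Club cell markers had 1, 2, 3 and 0 of 4 genes called lower, with the club cell enzyme gene Cyp2f2 at -2.67, -2.26 and -2.83 with CuO, CuO COOH and CuO NH3. The mean of the club list was 15.4 to 16.2 in PBS controls, 15.0 to 15.8 with CuO, 14.5 to 15.3 with CuO COOH, 13.8 to 14.2 with CuO NH3 and 15.2 to 15.4 with CuO PEG. Of 4 T cell markers 2, 2, 2 and 0 were called lower, and of 4 B cell markers 3, 0, 3 and 0. Of the interleukin-4 and interleukin-13 list, 4, 6, 6 and 3 of 29 genes were called higher and 3, 3, 3 and 1 lower. Il33, an epithelial alarm cytokine, was higher by 1.89 with CuO and the macrophage regulator Pparg was lower (-1.31). The part of these cells in the members' changes was not tested.

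**Figure D3:**
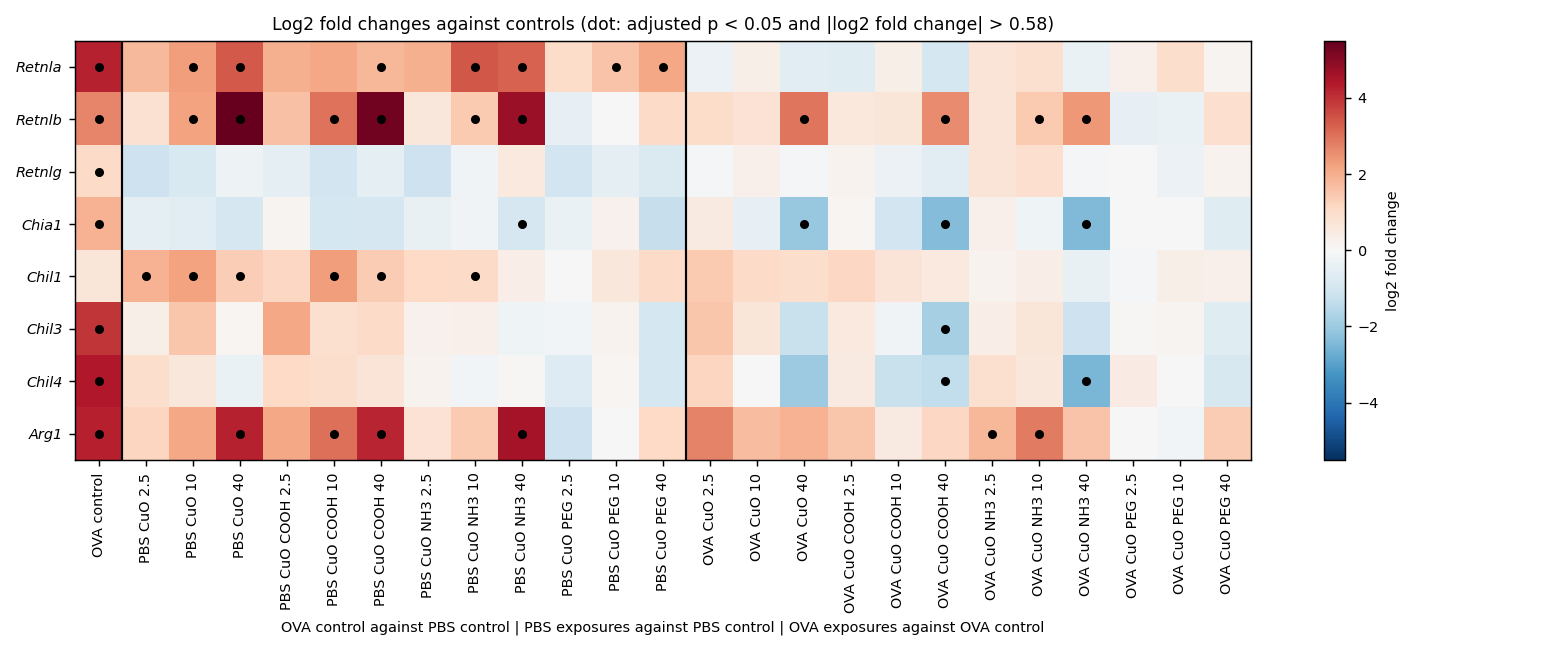
Log2 fold changes of the 8 members (rows), with a dot on called values. The first column sets OVA controls against PBS controls. The other columns show exposure to each material and dose against controls of the same challenge. In PBS-challenged mice the calls gather in Retnla, Retnlb, Chil1 and Arg1 at 10 and 40 μg/mouse, and in OVA-challenged mice in Retnlb (higher) and Chia1 and Chil4 (lower) at 40 μg/mouse.

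In OVA-challenged mice at 40 μg/mouse, Retnlb was called higher and Chia1 lower with CuO, CuO COOH and CuO NH3. Chil4 was called lower with CuO NH3 and, less firmly, with CuO COOH. The challenge itself had raised all of these genes. Over 12 comparisons with the 8 OVA controls there were 12 calls in 96 values, 6 higher and 6 lower, of which 9 were at 40 μg/mouse. CuO had 2 of them, CuO COOH 4, CuO NH3 6 and CuO PEG 0. Of all genes, the share called at 2.5, 10 and 40 μg/mouse was 0%, 0.267% and 1.58% for CuO, 0.0350%, 0.638% and 3.81% for CuO COOH, 0.992%, 2.51% and 3.97% for CuO NH3, and 0%, 0% and 0.642% for CuO PEG.

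Retnlb lay at 8.34 to 9.70 in OVA controls. The samples at 40 μg/mouse read 10.40, 10.55 and 10.29 with CuO, 11.90, 11.79 and 11.23 with CuO COOH and 11.38, 11.70 and 11.59 with CuO NH3, and all 9 samples lay above all controls. It was 7.77-fold higher with CuO (2.96 ± 0.50, adjusted p = 0.00304), 5.99-fold with CuO COOH (2.58 ± 0.36, adjusted p = 0.000122) and 5.23-fold with CuO NH3 (2.39 ± 0.39, adjusted p = 0.000806). The latter 2 calls held whichever sample was left out, and the CuO call was lost without its replicate 2 (2.49, adjusted p = 0.134) and was 1.36 (adjusted p = 0.00921) with dye, slide and position as terms. A call with CuO NH3 at 10 μg/mouse (1.46 ± 0.39, adjusted p = 0.0376) was lost without its replicate 2 or 3 or OVA control replicate 6 or 7 (lowest 0.88, adjusted p = 0.0503 to 0.838) and with dye, slide and position as terms (0.60, adjusted p = 0.403), loess, array or replicate number as a block, or the controls of the same slides alone (adjusted p = 0.0748 to 0.392). With CuO PEG at 40 μg/mouse the samples spread over 9.72, 8.40 and 9.95 and overlapped the controls.

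Chia1, the active chitinase, fell with CuO, CuO COOH and CuO NH3. OVA controls read 13.23 to 14.55 (median 14.22). At 40 μg/mouse the samples read 11.56, 11.65 and 11.73 with CuO, 11.52, 11.67 and 11.10 with CuO COOH and 12.52, 11.38 and 11.01 with CuO NH3, all below all OVA controls. The log2 fold change was -2.06 ± 0.42 with CuO (adjusted p = 0.012), -2.40 ± 0.30 with CuO COOH (adjusted p = 3.82e-05) and -2.42 ± 0.32 with CuO NH3 (adjusted p = 0.00017), a 4.18-, 5.29- and 5.34-fold lower level. The CuO NH3 call held whichever sample was left out. The CuO call was lost without its replicate 1 or 2 (adjusted p = 0.102 to 0.162) and the CuO COOH call without its replicate 1 or OVA control replicate 1, which shared an array (-1.70, adjusted p = 0.0804). With CuO PEG at that dose the samples read 12.96, 13.37 and 12.64, with 2 of 3 below all OVA controls. The change was not called with the array as a term and was called with dye, slide and position (-1.13, adjusted p = 0.0106), as was that with CuO COOH at 10 μg/mouse (-1.23, adjusted p = 0.00511).

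Chil4 read 11.51 to 12.87 (median 12.1) in OVA controls and 9.48, 9.35 and 8.99 with CuO NH3 at 40 μg/mouse. It was 5.66-fold lower (-2.50 ± 0.41, adjusted p = 0.000898), and the call held whichever sample was left out. With CuO the samples read 8.92, 8.42 and 8.30, the lowest of any OVA group, yet the change of -1.99 ± 0.54 was not called with the array as a term (adjusted p = 0.06), while with dye, slide and position as terms it was -3.57 and was called (adjusted p = 3.2e-11). With CuO COOH (10.57, 10.25 and 9.80) the change of -1.35 ± 0.38 was called (adjusted p = 0.0321). With the array as a term Chil3 was called lower only with CuO COOH (-1.82 ± 0.48, adjusted p = 0.022). Its samples there read 14.88, 16.98 and 14.41 and overlapped the controls at 15.87 to 17.71. With CuO the Chil3 samples read 15.17, 15.24 and 15.31, all below all OVA controls, without such a call. Both CuO COOH calls were lost without CuO COOH replicate 1 or OVA control replicate 1 (Chil3 -0.76, adjusted p = 0.817; Chil4 -0.68, adjusted p = 0.797), and the Chil4 call also without CuO COOH replicate 3 (adjusted p = 0.0571) and with the controls of the same slides alone (adjusted p = 0.0697). With CuO PEG at 40 μg/mouse Chil4 read 10.40, 9.90 and 10.42, below all OVA controls, and Chil3 14.87, 15.72 and 16.06. Both were uncalled with the array as a term, and their mean levels differed from those of OVA controls by -1.875 and -1.35. Over all 12 comparisons under OVA, Chil4 had 5 calls and Chil3 2 with dye, slide and position as terms.

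Arg1 was called higher with CuO NH3 at 10 μg/mouse (2.87 ± 0.48, adjusted p = 0.00229), where it read 13.26, 13.86 and 13.86 against 10.93 to 13.19 in OVA controls. A call at 2.5 μg/mouse (1.83 ± 0.43, adjusted p = 0.0358; 13.00, 14.19 and 13.50) overlapped the controls. The call at 10 μg/mouse was lost without its replicate 3 or OVA control replicate 7 (adjusted p = 0.504) and with replicate number as a block (0.92, adjusted p = 0.112), and was 1.72 with dye, slide and position as terms. That at 2.5 μg/mouse was lost without its replicate 2 or OVA control replicate 6 or 7 (lowest 0.54, adjusted p = 0.0528 to 0.954), with replicate number as a block (1.01, adjusted p = 0.0736), with loess (adjusted p = 0.0552) and with the controls of the same slides alone (adjusted p = 0.0688). In these groups the eosinophil markers Epx (1.71 at 2.5 and 2.39 at 10 μg/mouse) and Prg2 (1.23 and 1.55) were called higher too. The mean of the eosinophil list was 8.04 to 8.33 and 7.82 to 8.44 there and 7.06 to 8.05 in OVA controls, and its part in the Arg1 change was not tested. The CuO NH3 samples at 40 μg/mouse read 13.29, 14.11 and 13.94, above all controls, without a call with the array as a term and with one (1.84, adjusted p = 0.00135) with dye, slide and position. Arg2 was called higher in 8 of the 12 comparisons, with every material: with CuO at 10 and 40 μg/mouse (1.21 and 1.67), CuO COOH at 10 and 40 μg/mouse (1.04 and 0.90), CuO NH3 at all 3 doses (1.28, 1.56 and 1.19) and CuO PEG at 40 μg/mouse (1.16). Retnla, Retnlg and Chil1 were called in 0 of 12 comparisons each by limma (unadjusted p under 0.05 in 1, 2 and 5, and 0, 1 and 0 calls with dye, slide and position as terms), with log2 fold changes of -0.98 to 0.98, -0.61 to 0.90 and -0.43 to 1.45. No member was called at 2.5 or 10 μg/mouse with CuO or CuO COOH, where 2, 2, 2 and 3 members had an unadjusted p under 0.05 in that order, or at any dose of CuO PEG, where 0, 0 and 2 did. Of 22889 genes, 911, 2342, 1453 and 2315 had such a p with CuO and CuO COOH, and 1782, 1293 and 2977 with CuO PEG. With dye, slide and position as terms, limma called 2 with CuO COOH at 10 μg/mouse, 2 with CuO PEG at 40 μg/mouse and none in the other 5.

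Cell markers moved in OVA-challenged mice as well. Of the neutrophil markers 3, 3, 7 and 2 of 9 were called higher at the highest dose with CuO, CuO COOH, CuO NH3 and CuO PEG, and 3, 3, 7 and 0 of 8 alveolar macrophage markers lower. Goblet markers, which had risen with the challenge, were called lower in 0, 3, 7 and 0 of 8, led with CuO NH3 by Clca1 at -4.65 and Muc5ac at -3.06. The mean goblet level was 10.9 to 11.7 in OVA controls, 9.72 to 10.3 with CuO, 9.14 to 9.81 with CuO COOH, 8.80 to 9.18 with CuO NH3 and 9.11 to 10.2 with CuO PEG. Of 4 eosinophil markers none was called with any material at the highest dose, and their mean was 7.06 to 8.05 in OVA controls and 6.91 to 7.91 across the 4 materials. Itgax, an alveolar macrophage and dendritic cell marker, was lower with CuO (-1.15) and CuO COOH (-1.27). Club cell markers were called lower in 0, 0, 1 and 0 of 4, T cell markers in 2, 2, 3 and 0 of 4 and B cell markers in none. The part of these cells in the fall of Chia1 and Chil4 was not tested.

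**Figure D4:**
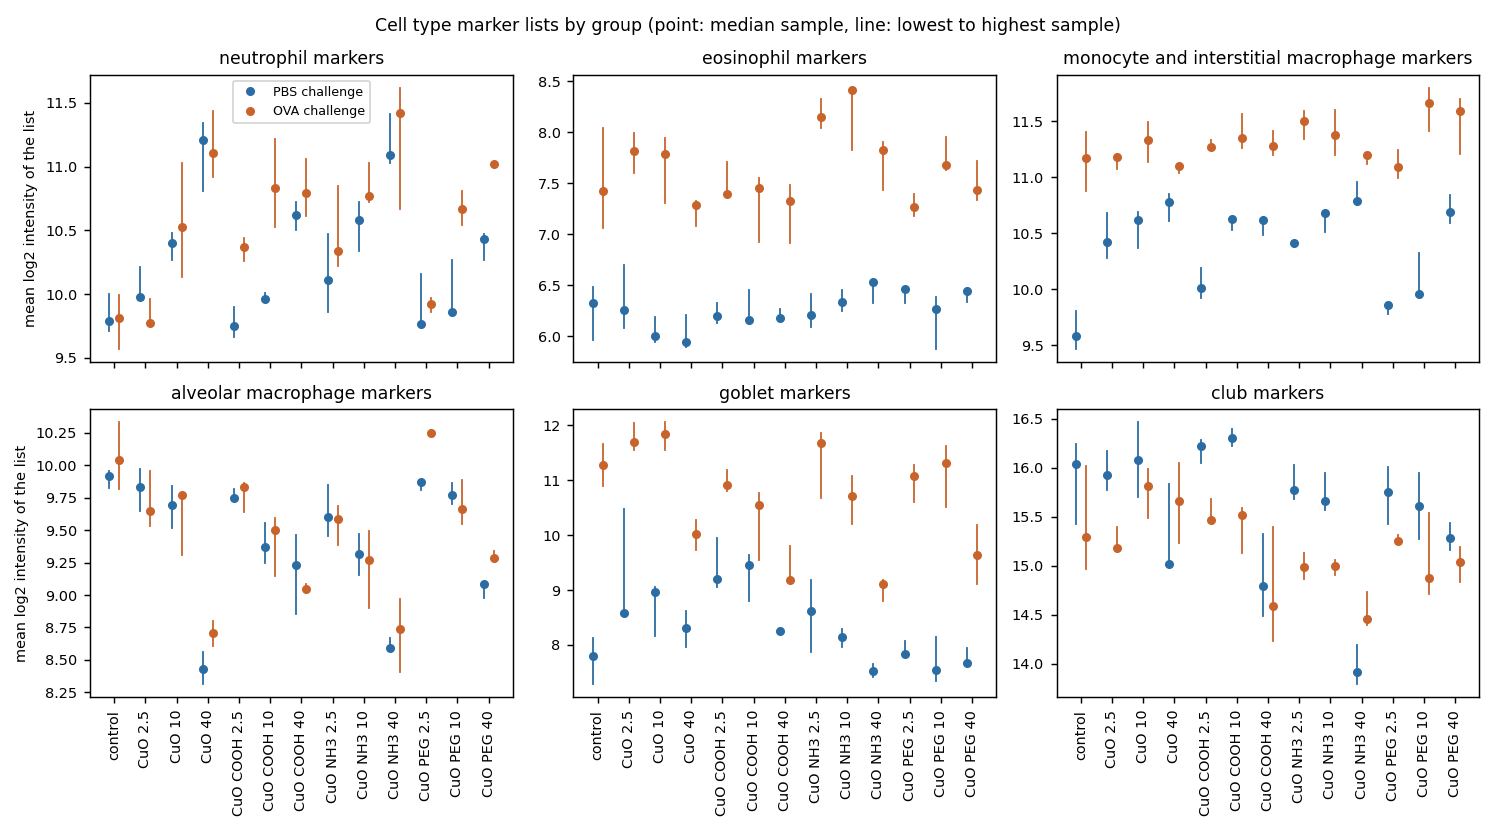
Mean log2 level over each cell marker list (y axis) by material and dose in μg/mouse (x axis), with PBS-challenged mice in blue and OVA-challenged mice in orange. Points are the median sample and lines run from the lowest to the highest sample. At the highest dose neutrophil markers lie above and alveolar macrophage markers below the controls under both challenges, and goblet markers are high in OVA controls and lower in OVA-challenged mice at the highest dose.

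The effect of exposure at 40 μg/mouse was set against the challenge by a test of the interaction, the change in OVA-challenged mice minus the change in PBS-challenged mice. There were 8 calls in 32 values, all negative, against 1.11% of all genes called for CuO, 1.05% for the carboxylated, 1.59% for the methylaminated and 0% for the PEGylated form. All materials share the same PBS and OVA controls here, so the values of a gene, and their signs, are not independent across materials. Retnla rose with CuO and CuO NH3 in PBS-challenged mice and was not called in OVA-challenged mice. The interaction was -3.97 ± 0.68 for CuO (adjusted p = 0.0027) and -3.57 ± 0.61 for CuO NH3 (adjusted p = 0.00136). The latter held whichever sample was left out, and the former was lost without OVA CuO replicate 2 (-2.86, adjusted p = 0.236). For Retnlb, which rose under both challenges, it was -2.53 ± 0.56 (CuO), -2.72 ± 0.58 (CuO COOH) and -2.36 ± 0.50 (CuO NH3) (adjusted p = 0.0219, 0.018 and 0.0108). For Arg1 it was -3.05 ± 0.72 for CuO COOH and -3.01 ± 0.62 for CuO NH3 (adjusted p = 0.0367 and 0.00836), and for Chil4 -2.58 ± 0.53 for CuO NH3 (adjusted p = 0.00855).

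These interaction calls of Retnlb, Arg1 and Chil4 were lost without single samples, all of 40 μg/mouse or control groups. The CuO call of Retnlb was lost without OVA CuO replicate 1 or 2, PBS CuO replicate 2 or 3, PBS control replicate 2 or 3 or OVA control replicate 3 (adjusted p = 0.0778 to 0.386), its CuO COOH call without OVA CuO COOH replicate 1, PBS CuO COOH replicate 1 or 3, or replicate 1 of either control (0.0631 to 0.264), and its CuO NH3 call without replicate 1 of either CuO NH3 group, OVA CuO NH3 replicate 3, OVA control replicate 8 or PBS control replicate 5 (0.0565 to 0.0756). The Arg1 call was lost for CuO COOH without OVA CuO COOH replicate 1 or 3, any PBS CuO COOH sample, PBS control replicate 2 or 3 or OVA control replicate 1 or 3 (lowest size -1.99, adjusted p = 0.0514 to 0.515), and for CuO NH3 without replicate 1 of either CuO NH3 group or PBS control replicate 5 (0.095 to 0.0989). The Chil4 call was lost without OVA CuO NH3 replicate 1 or 3 or OVA control replicate 8 (0.0506 to 0.0706). With the controls of the same slides alone the Arg1 calls (adjusted p = 0.0804 for CuO COOH and 0.0556 for CuO NH3) and the CuO NH3 call of Retnlb (adjusted p = 0.171) were lost, and the CuO COOH call of Arg1 also with loess (adjusted p = 0.0602). With CuO PEG no interaction was called, and 1 member and 1118 of 22889 genes had an unadjusted p under 0.05. With dye, slide and position as terms 17 interactions were called, among them 2 with CuO PEG, Retnla (-2.18, adjusted p = 0.0299) and Chil4 (-1.70, adjusted p = 0.0387). The shares of all genes given for the interaction do not apply to this fit, for which none was counted.

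**Figure D5:**
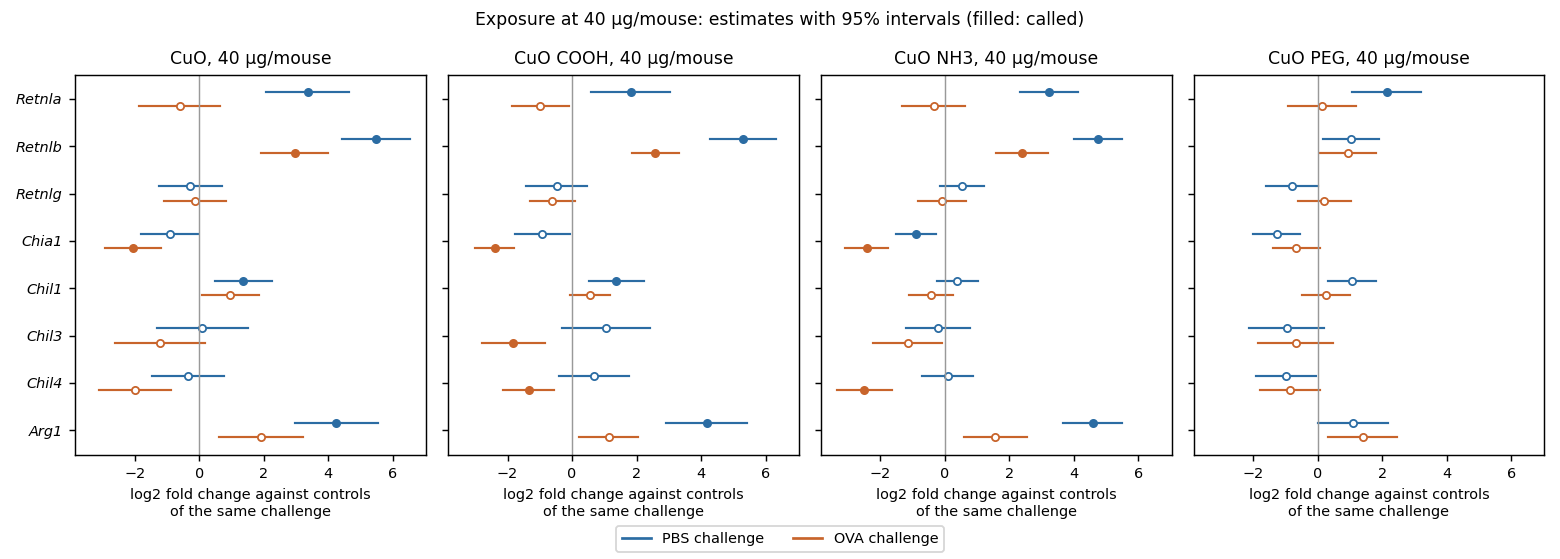
Log2 fold change of each member at 40 μg/mouse against controls of the same challenge, with 95% intervals, for PBS-challenged and OVA-challenged mice and each material. Filled points are called. With CuO, CuO COOH and CuO NH3 the PBS estimates of Retnla, Retnlb and Arg1 lie to the right of the OVA estimates, and with CuO PEG the pairs lie closer together.

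Between mice that received the same material at 40 μg/mouse with OVA or with PBS, members differed with CuO PEG. There 6 of 8 were called higher with OVA, against 0.931% of all genes. Chil4 read 6.96, 6.54 and 6.49 with PBS and 10.40, 9.90 and 10.42 with OVA, 22.7-fold higher (4.50 ± 0.53, adjusted p = 0.000191), a call that held whichever sample was left out. Arg1 was 23.5-fold higher (4.55 ± 0.62, adjusted p = 0.000576), Chil3 18.7-fold (4.23 ± 0.67, adjusted p = 0.00204), Retnlb 5.94-fold (2.57 ± 0.50, adjusted p = 0.0128), Chia1 5.80-fold (2.54 ± 0.42, adjusted p = 0.00314; 1.62 with dye, slide and position as terms) and Retnlg 4.12-fold (2.04 ± 0.47, adjusted p = 0.0332). These 5 calls were lost without OVA CuO PEG replicate 3 (adjusted p = 0.0549 for Arg1 and Chia1, 0.0886 for Chil3), that of Retnlb also without PBS CuO PEG replicate 1 (0.13 to 0.161) and that of Retnlg also without PBS CuO PEG replicate 1 or 3 or OVA CuO PEG replicate 1 (0.066 to 0.342).

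With the other 3 materials no member was called by limma with the array as a term, where 0.0218% of all genes were called for CuO, 0.00437% for the carboxylated and 0% for the methylaminated form. Unadjusted p was under 0.05 for 4, 1 and 3 members and for 940, 1122 and 1509 of 22889 genes. The intervals were wide: for Chil4 the difference was 2.76 (95% interval 1.72 to 3.81) with CuO and 1.82 (0.77 to 2.86) with CuO NH3, and for Chil3 3.02 (1.71 to 4.32) with CuO NH3, each with all 3 OVA samples above all 3 PBS samples. With dye, slide and position as terms 3, 4 and 3 members were called, and the share of all genes called in that fit was not counted. Chil3 and Chil4 were among them for all 3 materials (Chil4 by 2.17, 3.11 and 2.59, Chil3 by 2.46, 1.99 and 3.07), Retnlg for CuO and CuO COOH (1.12 and 0.94) and Arg1 for CuO COOH and CuO NH3 (2.31 and 2.28). Retnlb differed by 0.15 (-0.83 to 1.13) with CuO, -0.04 (-1.30 to 1.21) with CuO COOH and 0.32 (-0.65 to 1.30) with CuO NH3. Its 3 OVA samples lay above its 3 PBS samples with CuO COOH (11.23 to 11.90 against 9.55 to 10.87) and with CuO NH3 (11.38 to 11.70 against 11.03 to 11.19), and overlapped with CuO. The differences with dye, slide and position as terms were -0.13 (CuO), 1.25 (CuO COOH) and 0.42 (CuO NH3), none called (adjusted p = 0.0636 for CuO COOH).

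Modified materials were set against core CuO at equal mass and under the same challenge in 18 comparisons, with slide and position as terms since CuO NH3 and CuO PEG shared no slide with CuO and were linked to it by the controls on both sets of slides. There were 3 calls in 144 values. CuO PEG gave 2 of them. Retnlb in PBS-challenged mice at 40 μg/mouse read 7.10, 6.99 and 7.26 with CuO PEG and 9.38, 11.36 and 10.88 with CuO, 10.7-fold lower (-3.42 ± 0.47, adjusted p = 1.64e-06), against 4.39% of all genes. Chil1 in PBS-challenged mice at 2.5 μg/mouse read 14.36, 14.31 and 14.51 with CuO PEG and 15.90, 16.10 and 15.99 with CuO, 3.04-fold lower (-1.60 ± 0.28, adjusted p = 0.000158), against 1.86%. Both held whichever sample was left out. At equal mass CuO PEG brought less copper than core CuO. With core CuO at 10 μg/mouse under PBS, Retnlb read 6.75, 6.94 and 7.15, and the part of the copper dose in these differences was not tested. At 40 μg/mouse under PBS, Arg1 was lower with CuO PEG than with CuO by an uncalled -1.61 (95% interval -2.81 to -0.41, adjusted p = 0.0663). In OVA-challenged mice limma called no member between CuO PEG and CuO (unadjusted p under 0.05 for 1, 0 and 3 members at rising dose), with Chil4 at 1.69 (0.74 to 2.64) and Chia1 at 1.35 (0.58 to 2.11) at 40 μg/mouse. Of 22911 genes, 1639, 1404 and 2517 had an unadjusted p under 0.05 there.

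Carboxylated CuO differed from core CuO in 1 value, a higher Chil4 in OVA-challenged mice at 40 μg/mouse (1.66 ± 0.39, adjusted p = 0.0322; 10.57, 10.25 and 9.80 against 8.92, 8.42 and 8.30), against 0.323% of all genes. It was lost without any sample of OVA CuO or without OVA CuO COOH replicate 1 or 2 (adjusted p = 0.0541 to 0.197), and with the array as a term the difference was 0.64. Methylaminated CuO differed from core CuO in no called value by limma, with an unadjusted p under 0.05 for 0, 1 and 2 members at 2.5, 10 and 40 μg/mouse under PBS and for 1, 1 and 3 under OVA. Of 22911 genes, 1155, 1924 and 1798 had such a p under PBS and 1252, 1552 and 3006 under OVA. Under PBS at 40 μg/mouse the differences of Retnlb were -0.15 (95% interval -0.93 to 0.63) for CuO COOH and 0.60 (-0.36 to 1.55) for CuO NH3, and those of Arg1 -0.06 (-1.06 to 0.94) and 1.502 (0.28 to 2.73). Under OVA at that dose Arg1 was higher with CuO NH3 by an uncalled 2.28 (1.08 to 3.48, adjusted p = 0.0592). These intervals are wide, so a missing call does not show that the materials act alike. In the other comparisons the share of all genes called was, at 2.5, 10 and 40 μg/mouse under PBS, 0.188%, 0.0175% and 0.109% for CuO COOH and 0%, 0.161% and 0.127% for CuO NH3, and 1.06% for CuO PEG at 10 μg/mouse. Under OVA it was 0% and 0.00436% for CuO COOH at 2.5 and 10 μg/mouse, 0%, 0% and 0.384% for CuO NH3, and 0.00436%, 0% and 0.393% for CuO PEG.

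The order of the 26 groups differed between members. For Chil3 and Chil4 all 13 OVA groups had a mean above every PBS group, for Retnla and Retnlg 12, for Arg1 11, for Chia1 10, for Retnlb 2 and for Chil1 0. The like count over all genes was not made. Most neighbours in these orders did not differ beyond their spread. Of 25 steps from one group to the next, the means lay farther apart than the larger of both SDs in 5 for Chil4, 4 each for Retnla, Chia1 and Arg1, 3 for Retnlb, 1 each for Retnlg and Chil3 and 0 for Chil1. Over the 26 group means, which share slides and controls' batch correction, Pearson's r was 0.97 between Chil3 and Chil4, 0.92 between Retnlg and Arg1, 0.90 between Chia1 and Chil4 and 0.81 between Retnlb and Arg1, and 0.01 between Retnlb and Chia1. Chil1 followed none of the others (-0.05 to 0.32).

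Over the same means, the non-member genes with the most similar pattern were Sfxn1, 1110038B12Rik and Mrpl17 for Retnlb (r = 0.97 each), Ehf, Pigr and Lemd1 for Chil1 (0.92, 0.85 and 0.84) and Cela1, Ltb4r1 and Rab3il1 for Arg1 (0.98 each). For Chil4 they were AY761185, Cd209e and Col6a5 (0.99, 0.99 and 0.98), for Chil3 Cd209e, Pdcd1lg2 and Itgb2 (0.97, 0.96 and 0.96), and for Chia1 Itgax, Stac2 and Mag (0.96, 0.96 and 0.95). For Retnla they were 1700097N02Rik, the complement gene C1qb and Cpxm1 (0.96, 0.96 and 0.95), and for Retnlg Cebpe, a transcription factor of granulocyte maturation, Pdlim4 and F5 (0.97, 0.97 and 0.96). These correlations describe the 26 means and carry no test.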

How the data were processed

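RNA from lungs was measured on Agilent 2-colour mouse arrays. Per the file headers, the authors deposited Feature Extraction output (version 12.0.2.2) as spot intensity; the deposited log2 value table served as an alternative. Genes were named through RefSeq accessions. Control spots and outlier spots were left out, the log2 of the median foreground intensity, with no background subtracted, was quantile-normalised, and probes were averaged per gene. limma 3.58.1 (R 4.3.3) fitted group, dye and array, or group, dye, slide and position where modified materials were compared with core CuO, after the study's methods where stated. The code was tested on simulated data. Alternatives were normexp correction, loess and Aquantile normalisation, a filter on dim probes, the deposited table, the brightest probe per gene, other batch terms, a block for array or for replicate number, same-slide controls alone, each set of slides alone, and leaving out each sample. The members and gene lists were chosen with earlier results of these data known. All 8 members are named in every family of comparisons; of each list, at most 3 called genes per direction with the largest change; and, per member, the 3 most correlated genes. Median foreground was 62 to 130 in Cy3 and 70 to 203 in Cy5, 2.96 and 1.8 times local background, and no member spot was saturated. The number of arrays limits the precision. Labels give doses in both mg and μg, and μg is used, as in the sample descriptions and the study's methods.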

Additional observations from a re-analysis of the deposited data

Results flagged for a closer look

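The 8 interaction calls at 40 μg/mouse were singled out because the effect of exposure differed between OVA-challenged and PBS-challenged mice by a test of that difference in limma. In log2 units they were -3.97 (Retnla) and -2.53 (Retnlb) for CuO, -3.05 (Arg1) and -2.72 (Retnlb) for CuO COOH, and -3.01 (Arg1), -2.58 (Chil4), -3.57 (Retnla) and -2.36 (Retnlb) for CuO NH3. These values share the same PBS and OVA controls and are not independent. The Retnla value for CuO NH3 was the one that kept its call whichever sample was left out. No single sample stood apart from its group in 32 checks of groups of 4 to 8 samples, where chance gives about 1 in 20. These checks covered the controls and PBS CuO NH3 and PBS CuO PEG at 10 μg/mouse. The exposed groups of these interactions had 3 samples each and were not checked, so a sample apart there could not have been found.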

How the results depend on the processing

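Of 60 member calls, 24 were kept whichever sample was left out, and 21 of those under all other alternatives too; no called value changed sign. Calls by family were 7 for OVA against PBS controls, 24 and 12 for exposure in PBS-challenged and OVA-challenged mice, 6 for challenge at 40 μg/mouse, 8 for the interaction and 3 for modified against core CuO. With the array as a random block the last 5 counts became 42, 20, 15, 16 and 23. With replicate number as a block, and dye as the only batch term, they became 39, 25, 15, 18 and 27; in 7 pairs of same-numbered controls the correlation was over 0.1 in 2 with batch effects removed and in 6 with batch effects kept, so not in every pair either way, and the numbers were not taken to pair the samples. With dye, slide and position as terms the counts for exposure under OVA, challenge and interaction were 19, 16 and 17. Modified against core CuO gave 5 calls with loess and 6 without dim probes, the interaction 5 with controls of the same slides alone, and OVA against PBS controls 4 within slides 4 to 6. Leaving out 1 sample gave 6 to 8, 18 to 26, 9 to 16, 1 to 7 (1 without OVA CuO PEG 40 replicate 3), 5 to 12 and 2 to 7 (7 without PBS CuO 2.5 replicate 3) calls. With controls of the same slides alone, 13 calls were lost, with adjusted p from 0.0556 to 0.212. The cause of these shifts was not tested. Of 348 uncalled values, 87 changed sign under other batch terms, so the direction of an uncalled value given above may depend on these terms. Dim spots limit Retnlb most, with 11 of 89 samples not well above background.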
